A study of Mus musculus with 9 samples.

Results

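Cytosolic ribosomal protein genes encode the protein parts of the ribosome that translates messenger RNA in the cytoplasm. They were taken as the probe sets whose annotation gives a single symbol of the form Rpl or Rps with a number and at most a short suffix, or Rplp0, Rplp1, Rplp2 or Rpsa. Kinases of the Rps6k family and pseudogenes were left out. This gave 105 of 45101 probe sets, for 49 of the 18193 genes named on the array. Of these, 96 probe sets for 47 genes passed a filter on low values, which required that the 3 arrays of some day all called the probe set present. The 47 genes comprised 25 of the large subunit and 22 of the small subunit. They were tested among 11796 genes, each represented by its brightest passing probe set.

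RNA came from stromal vascular fractions (SVFs), the cells other than adipocytes that are freed when fat is digested, of inguinal subcutaneous fat. The donors were wild type Balb/c mice aged 10 weeks, and the labels name no transgene or drug. Priming in the study is the mincing of the fat (injury) together with ligation of its feeding artery (ischemia), and SVFs were taken on days 0, 1 and 3 from 3 individual mice a day, on 1 Affymetrix mouse array (Mouse430_2) each. The labels name priming, injury and the day, also for day 0, but not ischemia, and do not say whether the mice of day 0 were operated on. The paper treats day 0 as nonprimed SVFs, a term that its methods use for a sham operation.

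Ribosomal proteins are made in amounts that match ribosomal RNA, and their messages are among the most abundant in most cells. Many of these messages begin with a terminal oligopyrimidine (TOP) tract, a C followed by a run of pyrimidines, through which mTOR signaling controls their translation. Messages of translation elongation factors share this start. MYC and growth factor signals raise ribosome production in dividing cells, and a few ribosomal protein genes have paralogs with a more restricted expression. Arrays measure the messages and not their translation.

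The starts of the 13 genes that passed the test in any comparison are shown because many messages of this family begin with a TOP tract. The sequences are RefSeq's, on build GRCm38.p6, and run 5′ to 3′ from 10 bases before the annotated start of transcription to 20 bases from it on. Capitals mark the longest C followed by at least 4 pyrimidines.
Rps27 (chr3:90213629-90213658, minus strand): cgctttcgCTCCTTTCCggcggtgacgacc
Rplp2 (chr7:141447641-141447670, plus strand): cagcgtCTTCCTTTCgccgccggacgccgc
Rps18 (chr17:33955646-33955675, minus strand): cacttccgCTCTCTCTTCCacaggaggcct
Rps24 (chr14:24490668-24490697, plus strand): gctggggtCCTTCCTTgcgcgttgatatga
Rps9 (chr7:3704031-3704060, plus strand): cttgtCTCTCTTTgtctcgggcctgagttc
Rpl12 (chr2:32961702-32961731, plus strand): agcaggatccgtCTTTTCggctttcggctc
Rps7 (chr12:28635934-28635963, minus strand): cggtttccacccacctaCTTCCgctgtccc
Rpl27 (chr11:101442235-101442264, plus strand): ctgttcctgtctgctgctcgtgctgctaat
Rps15 (chr10:80292421-80292450, plus strand): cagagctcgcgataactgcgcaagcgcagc
Rps19 (chr7:24884582-24884611, plus strand): aatctcgcgagactcgacgcccgacttgtg
Rpl22 (chr4:152325716-152325745, plus strand): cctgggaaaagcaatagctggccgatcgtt
Rps25 (chr9:44407704-44407733, plus strand): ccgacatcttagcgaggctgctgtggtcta
Rps27l (chr9:66946076-66946105, plus strand): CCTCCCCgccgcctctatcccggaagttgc

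In Rps27, Rplp2 and Rps18 the annotated start was itself followed by enough of the tract to match the TOP pattern. In Rps24 and Rps9 the tract spanned the start, in Rpl12 and Rps7 it began after it, and Rpl27, Rps15, Rps19, Rpl22 and Rps25 held none in this window. The longest tract of Rps27l, a paralog of Rps27, lay before the start. The table held 51 starts for 43 of the 49 genes, and none for Rpl7, Rpl8, Rps14, Rps20, Rps29 or Rps4l. A tract of this kind occurred in the window of 60.8% of these starts, against 35.8% of all 32841 starts in the table. On the opposite strand of the same window it occurred in 25.5% and 40.7%. Exactly at the annotated start, it occurred in 15.7% of the members' starts and in 2.5% of all starts. The core CGGAAG of ETS factor sites, on either strand of the 300 bases around the start, occurred in 60.8% against 16.9%. A match is a description of the letters, and annotated starts can lie some bases from the true one.

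The files gave a MAS5 signal for each probe set, a summary of its probes on a linear scale, and a call of present, marginal or absent. Signals of different probe sets cannot be compared as amounts of RNA. All 9 arrays called 46 of the 47 genes present, and the probe set of Rpl39 was absent or marginal on 1 day 3 array. Rpl3l, a paralog known from striated muscle, was not called present on any of the 9 arrays, with signals of 4.06 to 39.7. The single-symbol probe set of Rps16 was not called present either, with signals of 1.17 to 14.1, so Rps16 was not measured here. Rplp1, Rps27a and Rpl5 were represented only by probe sets that list several genes, which were not assigned.

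Between 24106 and 26299 probe sets were called present on an array, and the ratio of 3' to 5' signal of the actin control was 1.15 to 1.32. The same ratio of the Gapdh control was 0.54 to 0.59 on day 0, 0.67 to 0.69 on day 1 and 0.63 to 0.71 on day 3. All arrays after priming thus lay above all day 0 arrays in the Gapdh ratio, and its part in the changes was not tested. Markers of adipose progenitors (Pdgfra, Dcn), endothelial cells (Pecam1, Cdh5) and the adipocyte gene Adipoq were called present on all 9 arrays. The median change of all genes on day 1 against day 0 was -0.13 on the log2 scale, and it was -0.01 after median centring of the arrays and -0.04 after quantile normalization. Changes are therefore also given relative to the median of all genes. Since SVFs are mixtures, fewer cells with a high level of a message and less of the message per cell cannot be told apart.

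The 47 ribosomal protein genes had a lower mean on each day 3 array than on any day 0 array, and 10 of them passed the test as lower. The mean of the 47 genes, relative to the mean of the day 0 arrays, was -0.04, 0.09 and -0.05 on the day 0 arrays on the log2 scale. It was -0.12, 0.14 and -0.09 on day 1, and -0.28, -0.20 and -0.15 on day 3. The 3 day 3 arrays lay below all day 0 arrays, while the day 1 arrays spanned them. The large subunit genes averaged -0.26, -0.21 and -0.12 on the day 3 arrays, and the small subunit genes -0.30, -0.19 and -0.18.

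**Figure D1:**
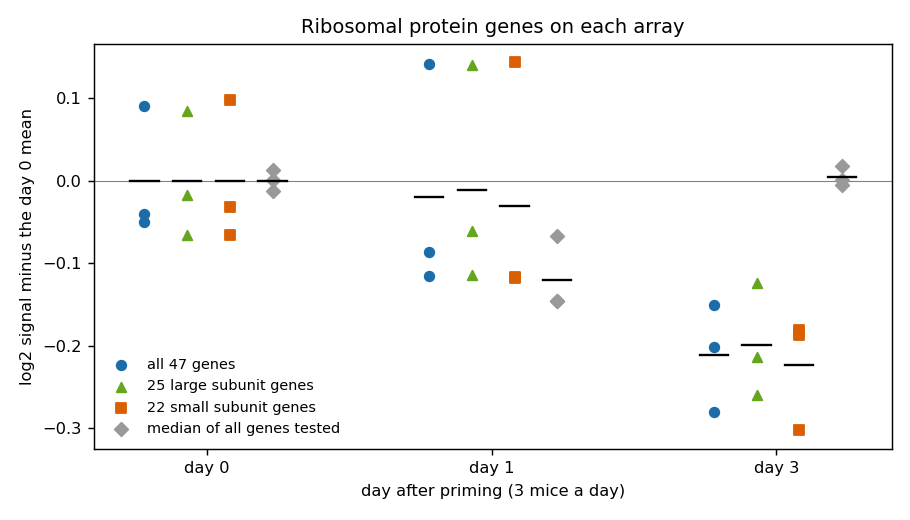
Mean log2 signal of the ribosomal protein genes on each array minus the mean of the day 0 arrays (y axis), by day after priming (x axis). Points are single mice, for all 47 genes, the 25 large subunit genes and the 22 small subunit genes, with the median of all 11796 genes beside them, and lines are means of 3 mice. The day 3 arrays of the 47 genes sit between -0.28 and -0.15, below the day 0 arrays at -0.05 to 0.09.

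On day 3, 42 of the 47 genes had a change below 0 and 5 a change above 0. The median change was -0.24, against -0.03 for all genes, a difference of -0.22. All 3 day 3 arrays lay below all 3 day 0 arrays for 36 genes, or 76.6%, against 24.6% of all genes. They lay above all 3 day 0 arrays for 3 of the 47 genes, against 2664 of all 11796 genes. By limma, 10 of 47 genes, or 21.3%, passed an adjusted p under 0.05 as lower, against 12.5% of all genes, and 0 passed as higher, against 13.6%. At an unadjusted p under 0.05, 30 genes were lower, against 19.6% of all genes, and 1 was higher, against 18.8%. By subunit, 3 of 25 large subunit genes and 7 of 22 small subunit genes passed as lower, a difference between the subunits that was not tested. The medians were -0.24 for the large and -0.24 for the small subunit.

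The shift on day 3 was small and its size depended on the scaling. After quantile normalization the median change was -0.08, and all day 3 arrays lay below all day 0 arrays for 18 genes, or 38.3% against 22.3% of all genes, and above them for 5. Then 3 genes passed as lower, or 6.38% against 12.2% of all genes. After median centring the median was -0.25, and the day 3 arrays lay below for 36 genes, against 24.9% of all genes, and above for 3. Then 8 genes passed as lower, or 17.0% against 12.9% of all genes. The shares of all genes with the day 3 arrays above are not given for either scaling. The count of 10 also moved when 1 array was left out. It was 6 without day 0 replicate 1, 2 without day 0 replicate 2, 2 without day 0 replicate 3, 2 without day 3 replicate 1, 2 without day 3 replicate 2 and 23 without day 1 replicate 2. The shares of all genes that passed in these fits are not given here, so the moves of this count cannot be read as particular to the members. The median change stayed between -0.28 and -0.19 when any single array was left out.

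On the dim probe sets that list them alone, Rps27 and Rpl12 fell on day 3 by more than 2-fold. Rps27 encodes a zinc finger protein of the small subunit. Its probe set 1460699_at gave signals of 929, 1453 and 1089 on day 0, 626, 1004 and 729.6 on day 1, and 466, 725 and 437 on day 3. All day 3 arrays lay below all day 0 arrays, and the day 1 arrays overlapped with both. The log2 change was -1.11 ± 0.24 (SE, 3 mice a day), or 0.465 times the day 0 level, with an adjusted p of 0.0056. Rpl12 encodes a protein at the base of the ribosomal stalk, where elongation factors bind. Its probe set 1435655_at gave 1881, 1704 and 1609 on day 0, 871, 1079.9 and 1616 on day 1, and 852, 685 and 972 on day 3. Its day 3 arrays were lower than every day 0 array, by -1.06 ± 0.21 or 0.479 times, with an adjusted p of 0.0034. Both calls held when any single array was left out and under both other scalings.

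Both symbols also stand on brighter probe sets that list other genes with them. The probe set 1415716_a_at, listed for Rps27 and Rps27rt, changed by -0.52 ± 0.15 on day 3 with an adjusted p of 0.031. Of the pair listed for Rpl12 and other symbols, 1416026_a_at changed by -0.33 ± 0.10 with an adjusted p of 0.047, and 1435725_x_at by -0.33 ± 0.12 with an adjusted p of 0.078. These changes had the same direction as the single-symbol probe sets and less than a 2-fold size.

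The other 8 genes that passed on day 3 changed by -0.38 to -0.24 with SEs of 0.08 to 0.12, which is 0.768 to 0.844 times the day 0 level, and their adjusted p was 0.021 to 0.046. All 8 had every day 3 array below every day 0 array. They were Rps7, Rps9, Rps15, Rps18, Rps19 and Rps24 of the small subunit and Rpl27 and Rplp2 of the large subunit. Rpl27 was named after its values were seen, to complete the count. Under the 28 alternatives of processing, these 8 calls were lost in 11 to 17, among them the fits without day 0 replicate 2, without day 0 replicate 3, without day 3 replicate 1 and without day 3 replicate 2.

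Rps19, the gene most often mutated in Diamond-Blackfan anemia, gave signals of 22430.4, 28844 and 23078 on day 0, 21123, 26594 and 22193 on day 1, and 18083, 18458 and 20224 on day 3. Its change on day 3 was -0.38 ± 0.12 (adjusted p = 0.033). Rps24, a further small subunit gene linked to that anemia, gave 31541, 34732 and 31092 on day 0, 28730.1, 37649 and 29200.4 on day 1, and 23884, 24579.6 and 27702 on day 3. Its change was -0.36 ± 0.11 (adjusted p = 0.035). In both genes replicate 2 was the highest array of days 0 and 1, and the day 3 arrays lay below all others.

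Rplp2 encodes an acidic protein of the stalk. It gave 35141, 36640.1 and 36456 on day 0, 30549.5, 36905 and 32417 on day 1, and 29821, 31029.5 and 30499.9 on day 3. The change was -0.24 ± 0.08 (adjusted p = 0.046), and its day 1 arrays spread over the range of both other days. Rplp0, the protein to which the acidic stalk proteins bind, had 23615, 24028 and 24132 on day 0 and 20093, 20816 and 22636 on day 3, a change of -0.18 ± 0.08 that did not pass (adjusted p = 0.14).

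Of the other genes chosen for what is known of them, Rpsa, also described as a laminin receptor, had a change of -0.26 ± 0.11 on day 3 (adjusted p = 0.092). Rpl13a, which has a role in silencing inflammatory messages, had -0.26 ± 0.10 (adjusted p = 0.091). Rps3, at the entry of the messenger RNA channel, had -0.28 ± 0.13 (adjusted p = 0.12). Rpl11, which binds MDM2 when ribosome assembly is disturbed, had -0.13 ± 0.14 (adjusted p = 0.54). Rps6, the target of the S6 kinases, had -0.20 ± 0.14 (adjusted p = 0.34) on the dim probe set 1416142_at, with signals of 444 to 716 over all arrays. None of these 5 genes passed the test. Fau, whose product carries a small subunit protein under another symbol, had signals of 20914 to 22525 on day 3 against 25245 to 27769 on day 0. It fell by 0.28 ± 0.08 on the log2 scale (adjusted p = 0.025). This call was lost in 13 of 28 alternatives, among them quantile normalization and the fits without day 0 replicate 2, without day 0 replicate 3, without day 3 replicate 1 and without day 3 replicate 2.

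**Figure D2:**
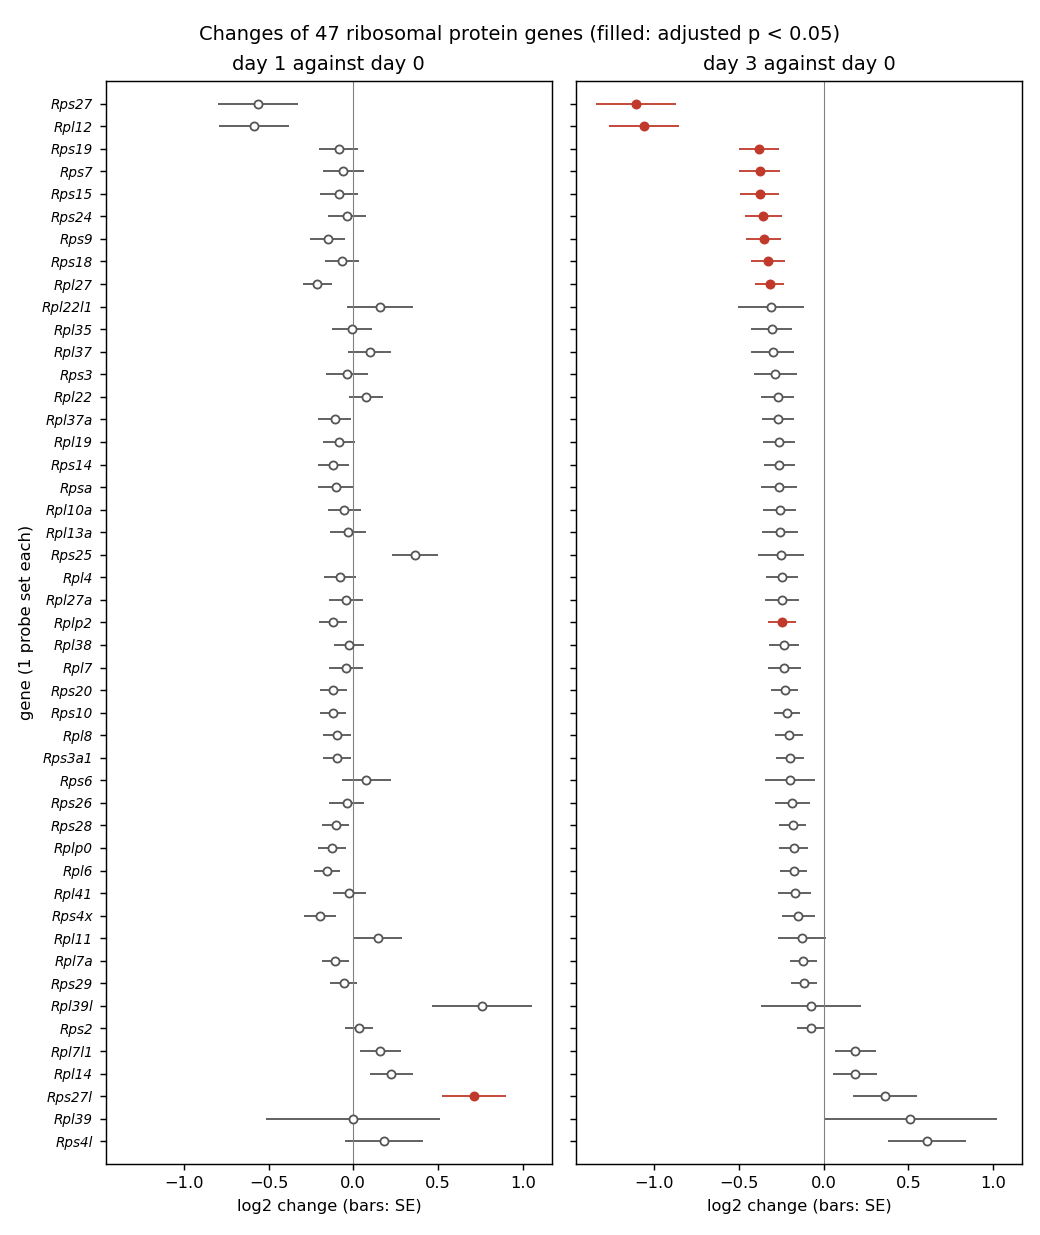
Log2 change of each of the 47 ribosomal protein genes (y axis, ordered by the change on day 3) on day 1 and day 3 against day 0 (x axes), with bars for limma's SE over 3 mice a day. Filled points passed an adjusted p under 0.05. On day 3, 42 genes lie below 0 and 10 of them passed, with Rps27 and Rpl12 the lowest, while on day 1 Rps27l passed as higher.

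Most of these genes were measured near the upper end of the signal range. Members made up 22 to 29 of the 100 brightest probe sets on each array, and the brightest signal on an array was 36585 to 43081. The files do not give saturation, so its part in these values was not tested. The probe sets were therefore also described by brightness. The 64 probe sets with a mean signal of at least 10000 had a median change of -0.25 on day 3, with a range of -0.40 to 0.04, and 13 passed as lower and 0 as higher. This was 20.3% lower, against 17.8% of all 433 probe sets of that brightness. The 32 dimmer probe sets had a median of -0.25, with a range of -1.11 to 0.61, and 6 passed as lower and 1 as higher, or 18.8% lower against 11.3% of all probe sets of that brightness. Over all 96, 19.8% passed as lower, against 11.4% of all probe sets tested. The bright probe sets thus covered a narrower range of changes around the same median.

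**Figure D3:**
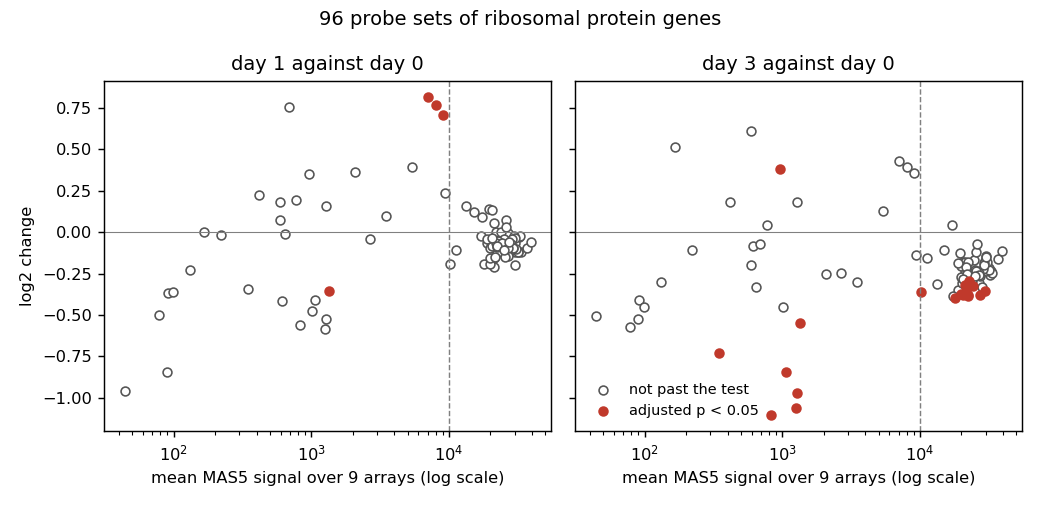
Log2 change on day 1 and day 3 against day 0 (y axes) against the mean MAS5 signal over 9 arrays (x axes, log scale) for the 96 probe sets of ribosomal protein genes. The dashed line marks a signal of 10000 and filled points passed an adjusted p under 0.05. On day 3 the 64 brighter probe sets lie between -0.40 and 0.04, and the 32 dimmer ones between -1.11 and 0.61.

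Probe sets of the same gene could differ in size of change. Rpl41 encodes a very short basic peptide of the large subunit. Its bright probe sets 1455578_x_at and 1422623_x_at changed by -0.17 and -0.11 on day 3 and did not pass. Its dim probe sets 1454639_x_at and 1433530_at changed by -0.97 and -0.84, with adjusted p of 0.014 and 0.035. Rps9, whose product helps decoding accuracy, changed by -0.35 on the bright probe set 1433689_s_at and by -0.73 on the dim 1426958_at (adjusted p = 0.019). Its other dim probe set, 1434624_x_at, changed by -0.33 and did not pass. Rpl22 had -0.27 on 1453118_s_at, -0.39 on 1416603_at and -0.55 on the dim 1448398_s_at (adjusted p = 0.0060 for the last). Dim probe sets did not always fall more. Those of Rpl13a (1433928_a_at), Rps3 (1455600_at) and Rpl37a (1416218_x_at) changed by 0.13, 0.04 and -0.08 and did not pass. No gene had a probe set that passed as lower and another that passed as higher in the same comparison. Of the 103 passing probe sets that list a member beside other genes, 21 passed as lower on day 3 and 0 as higher, or 20.4% lower against 9.75% of the 24920 probe sets in that fit, and their median change was -0.26.

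On day 1 the ribosomal protein genes as a group stayed near the day 0 level. The median change was -0.06, against -0.13 for all genes, a difference of 0.08. Of the 47 genes 35 had a change below 0 and 12 above 0, and after median centring 9 were below 0 and the median was 0.06. By limma 1 gene, or 2.13%, passed as higher, against 10.7% of all genes, and 0 as lower, against 17.9%. At an unadjusted p under 0.05, 3 were higher, against 14.9% of all genes, and 3 lower, against 27.4%. The count of 1 was 3 without day 0 replicate 2 or without day 1 replicate 3, and 0 without day 0 replicate 1, without day 0 replicate 3, without day 1 replicate 1 or without day 1 replicate 2. The shares of all genes that passed in the fits without 1 array are not given here. The comparisons of days 1 and 3 share the day 0 arrays. Without day 1 replicate 2 the median change on day 1 was -0.15, and without day 1 replicate 1 it was 0.0015.

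Rps27l was the gene that passed as higher on day 1. It encodes a close relative of the Rps27 protein and is a known target gene of p53. The signals were 6079.6, 8560.4 and 6138 on day 0, 12545, 13871 and 8058 on day 1, and 8905, 8724 and 8696 on day 3. Day 1 replicates 1 and 2 were above all day 0 arrays, while day 1 replicate 3 lay below the highest day 0 array. The change on day 1 was 0.71 ± 0.19, or 1.64-fold (adjusted p = 0.017), and all 3 of its probe sets passed as higher, by 0.71 to 0.82. The adjusted p was 0.063 without day 0 replicate 1, 0.071 without day 0 replicate 3, 0.064 without day 1 replicate 1 and 0.064 without day 1 replicate 2. On day 3 the change was 0.36 ± 0.19 (adjusted p = 0.18), with all day 3 arrays above all day 0 arrays.

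Rpl39l, a paralog of Rpl39 known from testis, gave 346, 745 and 641 on day 0, 924, 1339.7 and 648 on day 1, and 457, 534 and 582 on day 3. Its change on day 1 was 0.76 ± 0.29 (adjusted p = 0.073), the highest value among the members, and did not pass. Rps25, a small subunit protein used by some viral internal ribosome entry sites, gave 1714, 2289.5 and 2025 on day 0 and 2732, 2809 and 2207 on day 1. Its change was 0.36 ± 0.14 (adjusted p = 0.065), and the arrays of both days overlapped. On the brighter probe set 1451068_s_at, listed for Rps25 and other symbols, it was -0.04 ± 0.10 (adjusted p = 0.78). The day 1 changes of Rpl12 and Rps27 were -0.59 ± 0.21 (adjusted p = 0.052) and -0.56 ± 0.24 (adjusted p = 0.093).

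**Figure D4:**
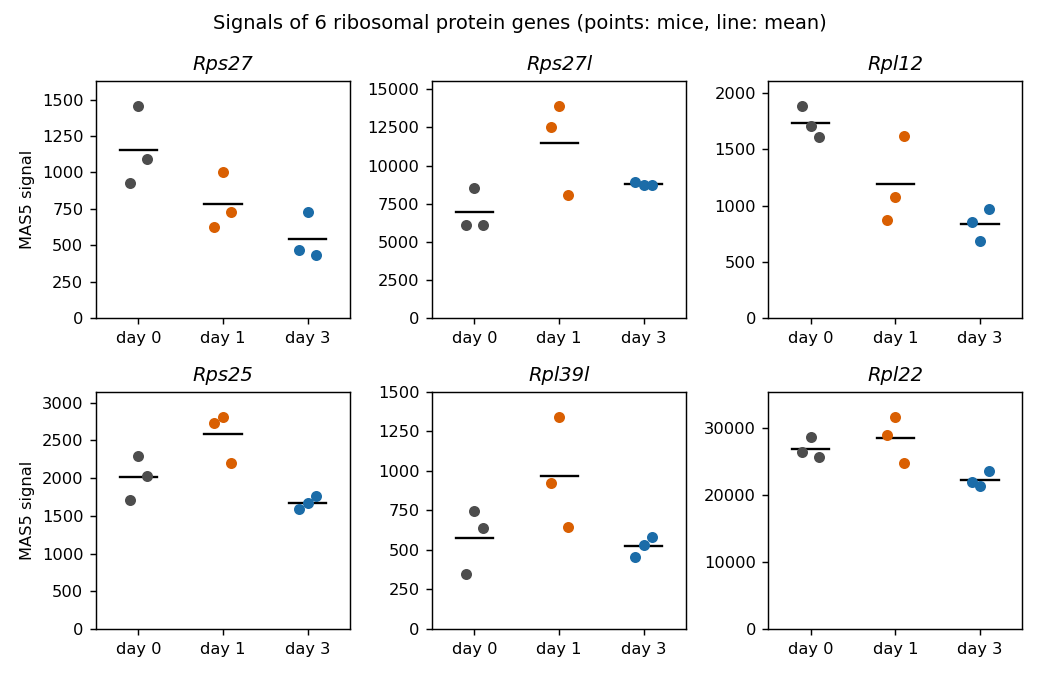
MAS5 signal (y axes, linear from 0, each with its own scale) of Rps27, Rps27l, Rpl12, Rps25, Rpl39l and Rpl22 on days 0, 1 and 3 (x axes), with 3 mice a day as points and their mean as a line. Rps27 and Rpl12 lie below every day 0 array on day 3, Rps27l is highest in day 1 replicates 1 and 2, and Rps25 is lower on day 3, at 1592 to 1764, than on day 1, at 2207 to 2809.

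Between days 1 and 3, 43 of the 47 genes had a change below 0, with a median of -0.18, against 0.09 for all genes. The count that passed as lower was 2, or 4.26%, against 4.54% of all genes, and 0 passed as higher, against 9.66%. The genes were Rps25 and Rpl22. Rps25 gave 1592, 1675 and 1764 on day 3, below all day 1 arrays, a change of -0.62 ± 0.14 (adjusted p = 0.013). The brighter probe set 1451068_s_at, listed for Rps25 and other symbols, changed by -0.27 ± 0.10 (adjusted p = 0.13). Rpl22, a large subunit protein known for its role in T cell development, gave 29043, 31639 and 24727 on day 1 and 21942, 21338 and 23658 on day 3. All its day 3 arrays were below all day 1 arrays, by -0.35 ± 0.10 (adjusted p = 0.038).

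Both calls were lost in several fits that left out 1 array, while the changes kept their sign. They were -0.73 to -0.55 for Rps25 and -0.44 to -0.27 for Rpl22. Without day 0 replicate 1 or day 0 replicate 3 the change of Rpl22 stayed at -0.35 and only its adjusted p moved. Rps25 had an adjusted p of 0.052 without day 1 replicate 2, 0.064 without day 3 replicate 1 and 0.051 without day 3 replicate 2. Rpl22 had 0.12 without day 1 replicate 2, 0.088 without day 1 replicate 1 and 0.13 without day 3 replicate 1. It had 0.14 without day 3 replicate 2, 0.058 without day 3 replicate 3, 0.051 without day 0 replicate 1 and 0.057 without day 0 replicate 3. The count of 2 was 8 without day 1 replicate 3 and 0 without day 1 replicate 2, without day 3 replicate 1 or without day 3 replicate 2. It was 1 without day 0 replicate 3, without day 1 replicate 1 or without day 3 replicate 3. For these fits too the shares of all genes that passed are not given. After quantile normalization the median was -0.05 and 1 gene passed as lower, or 2.13% against 4.86% of all genes. After median centring the median was -0.30 and 7 genes passed as lower, or 14.9% against 7.29% of all genes. Without day 1 replicate 2 the median was -0.08.

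The paralogs were compared with their parent genes within each array, as the difference of log2 signals, which does not depend on how arrays are scaled by a constant. An exact two-sided permutation test of 3 against 3 mice cannot go below p = 0.1. The difference of Rps27l and Rps27 was 2.49 to 2.71 on day 0, 3.47 to 4.33 on day 1 and 3.59 to 4.32 on day 3. All arrays after priming were thus above all day 0 arrays, by 1.27 on day 1 and 1.47 on day 3 (exact permutation p = 0.1 for each, the smallest possible). The size rests on the probe set used for Rps27. Against the brighter probe set 1415716_a_at, listed for Rps27 and Rps27rt and chosen after seeing the data, the shifts were 0.86 and 0.88, again with no overlap (exact permutation p = 0.1 for each). Against Rps27, days 1 and 3 overlapped, with a difference of 0.19 (exact permutation p = 0.7).

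The difference of Rpl22l1 and Rpl22 overlapped between all days, with shifts of 0.08 on day 1 (exact permutation p = 0.6) and -0.04 on day 3 (exact permutation p = 0.8). Rpl22l1 itself, which Rpl22 is known to repress, gave 11606, 17121 and 12254 on day 0, 13434, 20919.6 and 12028 on day 1, and 10444, 11165 and 10962 on day 3. Its changes were 0.16 ± 0.19 on day 1 (adjusted p = 0.56), -0.31 ± 0.19 on day 3 (adjusted p = 0.26) and -0.47 ± 0.19 between days 1 and 3 (adjusted p = 0.12). Replicate 2 was the highest array on days 0 and 1.

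Rpl7l1, a paralog of Rpl7, gave 1134, 1213 and 1163 on day 0 and 1299, 1414 and 1279.7 on day 3. Its change was 0.19 ± 0.12 on day 3 (adjusted p = 0.29), and its probe set 1426386_at passed as higher in the fit of probe sets, by 0.38 (adjusted p = 0.048). Relative to Rpl7 it was 0.42 higher on day 3, with no overlap (exact permutation p = 0.1). Rps4l, a paralog of Rps4x, gave 501, 462 and 460.2 on day 0 and 586, 1112 and 582 on day 3, with 1 of the mice far above the others. Its change was 0.61 ± 0.23 (adjusted p = 0.071), and relative to Rps4x it was 0.76 higher with no overlap (exact permutation p = 0.1). Rpl39l relative to Rpl39 changed by -1.35 between days 1 and 3 (exact permutation p = 0.1), but the Rpl39 probe set was dim, with signals of 59.7 to 344 on day 0. These 15 comparisons of 5 pairs were not adjusted, since none can pass.

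**Figure D5:**
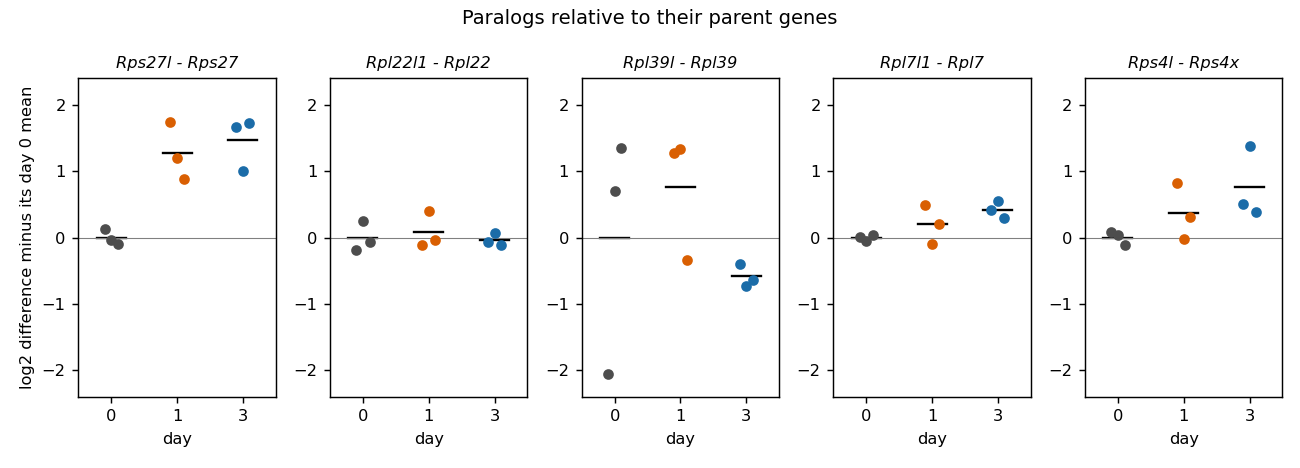
Log2 signal of each paralog minus that of its parent gene on the same array, with the day 0 mean subtracted (y axes), on days 0, 1 and 3 (x axes). Points are mice and lines are means of 3 mice. For Rps27l and Rps27 all arrays of days 1 and 3 lie above all day 0 arrays, by 1.27 and 1.47 on average, while the days overlap for Rpl22l1 and Rpl22.

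The members varied together between mice of the same day. Replicate 2 held the highest signal of its day for 36 of 47 genes on day 0, or 76.6%, against 35.1% of all genes. On day 1 it did so for 41 genes, or 87.2%, against 29.2% of all genes, and on day 3 replicate 3 did so for 37, or 78.7%, against 33.7%. The actin ratio was highest in day 1 replicate 2, at 1.32, and next in day 0 replicate 2, at 1.26, and its part in the members' level was not tested. With both replicate 2 arrays of days 0 and 1 left out, an alternative chosen after seeing the data, the median change on day 3 was -0.19 and 7 genes passed as lower. The share of all genes that passed in that fit is not given here.

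Other genes of translation were described from lists. For this and the lists below, the shares of all genes that passed were 10.7% higher and 17.9% lower on day 1. On day 3 they were 13.6% higher and 12.5% lower. Of 23 translation elongation factors and other genes with TOP messages, 0 passed as higher and 2 as lower on day 1, and 1 as higher and 3 as lower on day 3. The lower calls were thus near the share of all genes on day 3 and below it on day 1. Median changes of these 23 genes were 0.02 and -0.17. The noncoding host genes of small nucleolar RNAs Snhg8 and Gas5 changed by -0.71 ± 0.15 (adjusted p = 0.0045) and -0.46 ± 0.14 (adjusted p = 0.036) on day 3. Eef2, which moves the ribosome along the message, fell by 0.34 ± 0.10 on day 1 (adjusted p = 0.023) and by 0.30 ± 0.10 on day 3 (adjusted p = 0.042) on the log2 scale.

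Of 33 genes of ribosome assembly with MYC, 3 passed as higher and 2 as lower on day 1, and 1 as higher and 4 as lower on day 3. Here too the lower calls were near the share of all genes on day 3 and below it on day 1. The median changes were 0.07 and 0.00. Myc itself changed by -0.62 ± 0.16 on day 1 (adjusted p = 0.016) and -0.53 ± 0.16 on day 3 (adjusted p = 0.033). The box C/D particle proteins Nop58 and Nop56 changed by -0.76 ± 0.17 and -0.49 ± 0.12 on day 3 (adjusted p = 0.0076 and 0.013). Nhp2, a box H/ACA particle protein, rose by 0.77 ± 0.11 on day 1 (adjusted p = 0.00072) and 0.51 ± 0.11 on day 3 (adjusted p = 0.0076).

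The ribosomal proteins of mitochondria, which are encoded by other nuclear genes, moved differently in count. Of 76 genes with symbols Mrpl or Mrps, 18 passed as higher and 0 as lower on day 1, with a median of 0.24, and 8 as higher and 1 as lower on day 3, with a median of 0.14. Of all genes, 10.7% passed as higher on day 1 and 13.6% on day 3. The share of this family that passed as higher was thus above that of all genes on day 1 and below it on day 3. Mrpl17 changed by 0.70 ± 0.11 on day 1 (adjusted p = 0.0011) and 0.74 ± 0.11 on day 3 (adjusted p = 0.00068). The difference between the families was not tested. Of 17 cell cycle genes, 14 passed as higher on day 3, with a median of 1.54, as with Cdk1 at 2.35 ± 0.24 (adjusted p = 4.2e-05), and 0 as higher and 2 as lower on day 1.

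Markers of the cells in the SVFs moved on the same days. Of 12 neutrophil genes, 10 passed as higher on day 1, and 9 as higher and 1 as lower on day 3, and their mean on the arrays, relative to day 0, was 3.42 to 3.92 on day 1 and 1.93 to 2.43 on day 3. Of 11 B cell genes, 7 passed as lower on day 1 and 9 on day 3, and their mean was -1.47 to -0.37 on day 1 and -1.67 to -0.82 on day 3. Of 10 T cell genes, 7 passed as lower on each day, and their mean was -2.38 to -0.50 on day 1 and -1.49 to -0.90 on day 3. On day 0 the B cell mean was -0.27 to 0.46 and the T cell mean -0.04 to 0.05. The part of these cells in the change of the ribosomal protein genes was not tested.

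The other lists differed in direction. Of 13 macrophage genes, 5 passed as higher and 1 as lower on day 1, and 6 as higher and 1 as lower on day 3. Of 13 genes of adipose progenitors and fibroblasts, 0 passed as higher and 5 as lower on day 1, and 1 as higher and 5 as lower on day 3. Of 12 endothelial genes, 8 passed as lower on day 1 and 4 on day 3, and of 5 genes of mature adipocytes 2 and 4 did so. In both of these lists 0 genes passed as higher on either day.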

How the data were processed

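The authors deposited, for each of 9 arrays, MAS5 signal intensity per probe set, scaled to a common target on every array, with a detection call and a detection p-value. The software version is not given in the sources used here. The series' table of values held the same signals, within 5e-04 percent. Gene names came from the platform annotation supplied with the data: 34945 of 45101 probe sets had 1 symbol, 932 several, 9160 none and 64 were controls. All 49 member symbols matched RefSeq.

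Samples were grouped by the day in the labels. Signals were log2-transformed with no offset, probe sets were kept if the 3 arrays of some day all called them present, and the brightest one represented its gene. The p-values served only for the deposited calls. limma 3.58.1 in R 4.3.3 (lmFit, contrasts.fit, eBayes with a variance trend), with data.table (version 1.17.8), fitted all arrays with day as the factor, with 6 residual and 5.54 prior degrees of freedom. Tests were two-sided, with Benjamini-Hochberg adjustment over 11796 genes (21283 probe sets in the fit of probe sets). The error after ± is limma's SE of a log2 change. Groups of 3 arrays limit the precision. The fit was tested on simulated data, and figures were drawn with matplotlib 3.10.9.

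The members, lists and genes named were chosen with earlier results of these data known. The rule named the 8 largest called rises and falls without overlap in each comparison, all paralogs, genes with opposed probe sets, a fixed set of well-known members, and up to 3 genes of each other list. Promoter sequences came from RefSeq. Alternatives were other scalings, added constants, filters, probe set rules, limits, fits, a replicate block and leaving out arrays.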

Additional observations from a re-analysis of the deposited data

Results flagged for a closer look

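For a pair of genes the estimates on days 1 and 3 against day 0 had opposite signs and the difference between the days passed limma's test. For Rps25 the value was 0.36 on day 1 and -0.25 on day 3, and the difference was -0.62 (adjusted p = 0.013). For Rpl22 it was 0.07 ± 0.10 on day 1 and -0.27 on day 3, and the difference was -0.35 (adjusted p = 0.038). Neither gene passed on day 1 or on day 3 alone. The day 1 value of Rpl22 was -0.06 with the mean of its probe sets and -0.35 with the dimmest, so its opposite sign depends on the probe set. The opposite sign of Rps25 does so too. The brighter probe set 1451068_s_at, listed for Rps25 and other symbols, changed by -0.04 ± 0.10 on day 1 and -0.31 ± 0.10 on day 3. Both differences no longer passed in several fits that left out 1 array, as given above.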

How the results depend on the processing

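The results were recomputed under 28 alternatives. The direction of the median change on day 3 held under all of them, and the calls of Rps27 and Rpl12 on day 3 were lost only when the methods' analysis of variance was adjusted for multiple tests. The count of genes lower on day 3, 10 as reported, was 3 after quantile normalization, 2 with no filter, 2 with no variance trend, 27 with array weights, 24 with only the 6 arrays compared, 2 at an adjusted p under 0.01, 2 at a 2-fold limit, 2 by the methods' analysis of variance at 2-fold and 0 when it was adjusted, 6 with the dimmest probe set that passes (chosen after seeing the data) and 19 counting probe sets. It ranged from 2 to 23 when 1 array was left out. The count higher on day 3, 0 as reported, was 1 with array weights, 1 with only the 6 arrays compared, 1 counting probe sets and 0 to 1 without 1 array. The medians moved to -0.0758 on day 3 and -0.0482 between days 1 and 3 after quantile normalization, and to 0.0639 on day 1 and -0.302 between days 1 and 3 after median centring.

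On day 1 the count higher, 1 as reported, was 2 after quantile normalization and after median centring, 3 with array weights, 3 counting probe sets, 0 at an adjusted p under 0.01, 0 at a 2-fold limit, 0 by the methods' analysis of variance, adjusted or not, and 0 to 3 without 1 array. The count lower, 0 as reported, was 1 with 64 added, with presence on all 9 arrays, with array weights and counting probe sets, and 0 to 1 without 1 array. Between days 1 and 3 the count lower, 2 as reported, was 1 after quantile normalization, 7 after median centring, 1 with no filter, 1 with the mean of probe sets, 1 with no _s_at or _x_at probe sets, 1 with no variance trend, 11 with array weights, 0 at an adjusted p under 0.01, 0 at a 2-fold limit and 0 by the methods' analysis of variance, adjusted or not. It was 1 with the dimmest probe set, 1 with both replicate 2 arrays of days 0 and 1 left out, and 0 to 8 without 1 array. The count higher was 1 with no filter. Except where stated above, the shares of all genes that passed under these alternatives are not given here. The counts therefore cannot be read as particular to the members. The cause of these differences was not tested.

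The study used 3 individual mice a day, so the replicate numbers were not taken as pairs. Residuals of same-numbered arrays correlated at -0.147 to 0.331, with the highest value for replicate 2 of days 0 and 1. These correlations cannot show whether same-numbered arrays were handled together. With the replicate number as a block, a hint only, 15 genes were lower on day 3, 2 were higher and 2 lower on day 1, and 5 were lower between days 1 and 3. The shares of all genes that passed in that fit are not given either.

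Single changes near 0 changed sign. Rpl7l1 between days 1 and 3 (0.03) was -0.0164 after quantile normalization, -0.0967 after median centring, -0.0121 with the mean of probe sets, -0.00317 with array weights, -0.0920 with the dimmest probe set, -0.0126 without both replicate 2 arrays and -0.0377 to 0.133 without 1 array. With the dimmest probe set it was -0.0146 on day 1 and -0.107 on day 3. Rpl22 on day 1 (0.07) was -0.0623 with the mean of probe sets, -0.354 with the dimmest probe set and -0.00602 to 0.172 without 1 array. With the dimmest probe set Rpl13a was 0.126 and Rps3 0.0415 on day 3. Without 1 array, Rpl39l on day 3 (-0.07) was -0.406 to 0.148, and it was 0.148 without both replicate 2 arrays. Rpl22l1 and Rpl11 on day 1 were -0.0819 to 0.332 and -0.0337 to 0.266 without 1 array.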
